A study of Rattus norvegicus with 8 samples.

Results

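Heat shock factors, molecular chaperones and their cochaperones were followed as a network of 42 named genes in livers of male Wistar rats (an outbred strain) that had been perfused outside the body. The genes were chosen by name, and for each the probe set with that single symbol was taken, or the brightest of several. Of the 42 genes 41 were measured, among 14506 genes on the array, and Ahsa1 is not analysed here. The series holds 8 one-colour Affymetrix arrays, 1 for each liver RNA sample. In this preparation an isolated liver is kept alive by Krebs-Henseleit buffer pumped through its vessels. The rats were 6 to 10 weeks old, no allele or drug is named for any of them, and perfusion lasted up to 180 min according to the labels. All samples carry the time point 120 min. The 4 normoosmotic samples were perfused with buffer of 305 mosm/L, and the 4 hypoosmotic samples with buffer of 225 mosm/L, which draws water into cells and swells them. An isolated liver has no blood supply or nerve input. Whether each sample is a separate animal is not stated in the labels. The p-values therefore cover the spread among these 8 samples, part of which may be technical.

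Chaperones hold and refold other proteins. HSP70 proteins bind exposed hydrophobic stretches with the help of HSP40 partners, which deliver clients and drive ATP hydrolysis, and of exchange factors, which release them. HSP90 finishes the folding of kinases and steroid receptors, chaperonins fold proteins inside a closed ring, and small HSPs keep unfolded chains soluble. The transcription factor HSF1 is held inactive by chaperones until unfolded proteins draw these away, and then binds heat shock elements in the promoters of chaperone genes. Liver cells, which make most plasma proteins, express this network at rest.

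A heat shock element is a run of GAA and TTC units in alternating orientation, with a pair of bases between units. Promoter sequences from RefSeq (GRCr8) reached from 250 bases before to 50 after each gene's start and were matched by symbol for 36 of the 41 measured members, all except Hsf1, Hsp90aa1, Dnaja2, Dnajb4 and Cryab. They were searched for GAANNTTC or TTCNNGAA, each of which reads alike on both strands and which can overlap within a longer run. A match was found in 19 of the 36 promoters (52.8%), against 15.9% of the 33469 promoters in the table and 12.8% of the 11968 promoters of measured genes. Runs of 3 units, GAANNTTCNNGAA or TTCNNGAANNTTC, were found in 7 of 36 members (19.4%) and in 0.535% of the promoters of measured genes. A match describes the letters only. Runs of 3 or more units from 4 promoters are shown first, because they lie in a gene that fell (Chordc1) and in genes whose values did not pass the test (Hspa8, Hspe1 and Hspd1). Capitals mark the matched units, and each sequence runs 5′ to 3′ toward the gene.
Chordc1 (chr8:23650828-23650856, plus strand): ccgGAACGTTCGGGAAGATTCCTGAAgca
Hspa8 (chr8:50080439-50080491, plus strand): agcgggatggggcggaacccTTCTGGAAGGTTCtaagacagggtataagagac
Hspe1 (chr9:64084242-64084299, plus strand): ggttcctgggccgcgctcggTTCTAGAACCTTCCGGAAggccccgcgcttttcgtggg
Hspd1 (chr9:64084242-64084287, minus strand): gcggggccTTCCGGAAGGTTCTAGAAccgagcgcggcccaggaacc
The Chordc1 run has 5 units and begins at base 11 of the transcribed part. The 3-unit run of Hspa8 that is shown begins at base -55 before the start. Hspe1 and Hspd1, which lie head to head, share a single run of 4 units, read here from either strand, at base -65 of Hspe1 and base -242 of Hspd1.

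The 250 bases before the start are given for the called members in the table, Hsf2 and Chordc1, and for 3 members well known for induction by heat, Hsph1, Dnajb1 and Hspb1. Capitals again mark GAANNTTC or TTCNNGAA.
Hsf2 (chr20:37366051-37366300, plus strand): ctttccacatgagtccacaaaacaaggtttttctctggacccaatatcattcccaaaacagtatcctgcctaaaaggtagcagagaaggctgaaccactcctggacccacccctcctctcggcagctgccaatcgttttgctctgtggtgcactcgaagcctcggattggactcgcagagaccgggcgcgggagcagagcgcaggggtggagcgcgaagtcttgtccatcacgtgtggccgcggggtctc
Chordc1 (chr8:23650571-23650820, plus strand): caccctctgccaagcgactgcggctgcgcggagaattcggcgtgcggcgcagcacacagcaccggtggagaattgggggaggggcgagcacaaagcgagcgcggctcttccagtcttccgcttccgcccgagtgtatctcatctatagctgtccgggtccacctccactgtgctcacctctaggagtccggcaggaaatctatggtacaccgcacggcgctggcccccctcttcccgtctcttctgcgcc
Hsph1 (chr12:10427118-10427367, plus strand): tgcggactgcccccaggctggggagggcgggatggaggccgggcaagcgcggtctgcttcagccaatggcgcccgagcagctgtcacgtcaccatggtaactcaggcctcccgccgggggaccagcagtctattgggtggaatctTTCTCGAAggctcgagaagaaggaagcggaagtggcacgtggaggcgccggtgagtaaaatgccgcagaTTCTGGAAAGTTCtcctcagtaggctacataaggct
Dnajb1 (chr19:41431142-41431391, minus strand): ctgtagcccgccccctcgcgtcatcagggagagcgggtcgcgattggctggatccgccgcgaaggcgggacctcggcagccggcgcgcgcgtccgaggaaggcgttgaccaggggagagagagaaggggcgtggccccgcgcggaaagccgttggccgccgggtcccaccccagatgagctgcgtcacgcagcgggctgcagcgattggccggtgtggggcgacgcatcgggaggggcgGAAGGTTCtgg
Hspb1 (chr12:26432302-26432551, minus strand): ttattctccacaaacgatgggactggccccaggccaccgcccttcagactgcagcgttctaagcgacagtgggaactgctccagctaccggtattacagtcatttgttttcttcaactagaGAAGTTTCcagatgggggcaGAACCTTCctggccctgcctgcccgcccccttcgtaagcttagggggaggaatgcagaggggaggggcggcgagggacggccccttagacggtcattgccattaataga
Neither Hsf2 nor Chordc1 held a match in these 250 bases. Hsph1 held 3 matches, a pair of which overlap, Hspb1 held 2 and Dnajb1 held 1.

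Hypoosmotic samples had lower levels of both heat shock factor genes, of the stress-inducible HSP90 gene Hsp90aa1 and of the HSP90 cochaperone gene Chordc1, while 37 of the 41 measured members were not called in either direction. Genes were called at an adjusted p under 0.05 over all 14506 genes (limma, Benjamini-Hochberg). The 4 called members make up 9.76% of those measured, and all 4 were lower. Hsf1 alone was called with a score of clock gene levels as covariate and without normoosmotic replicate 1 or 3 or hypoosmotic replicate 1, 2 or 3, and without hypoosmotic replicate 2 the count over all genes fell from 287 to 81. Over all genes 1.42% were called lower and 0.558% higher. In 8 members the values of the groups did not overlap, 7 of them lower and 1 higher in hypoosmotic samples. That is 19.5% of the members, against 8.27% of all genes (5.05% lower and 3.21% higher). An unadjusted p under 0.05 was seen in 8 members with a negative and 3 with a positive change, and in 14.6% of all genes (7.97% negative and 6.6% positive). The median log2 change of the members, hypoosmotic minus normoosmotic, was -0.04, and that of all genes was 0.04. Of the members 24 had a change below 0 (58.5%), as did 41.4% of all genes. Only 1 member lay among the dimmest 25% of genes by mean level, so all genes are a dimmer background than the members. Without the dimmest 25%, 238 of 10879 genes were called lower and 96 higher, and the same 4 members were called. The median over all genes was 0.02 in that setting and 0.01 with array medians subtracted. The other shares were not recounted without dim genes.

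**Figure D1:**
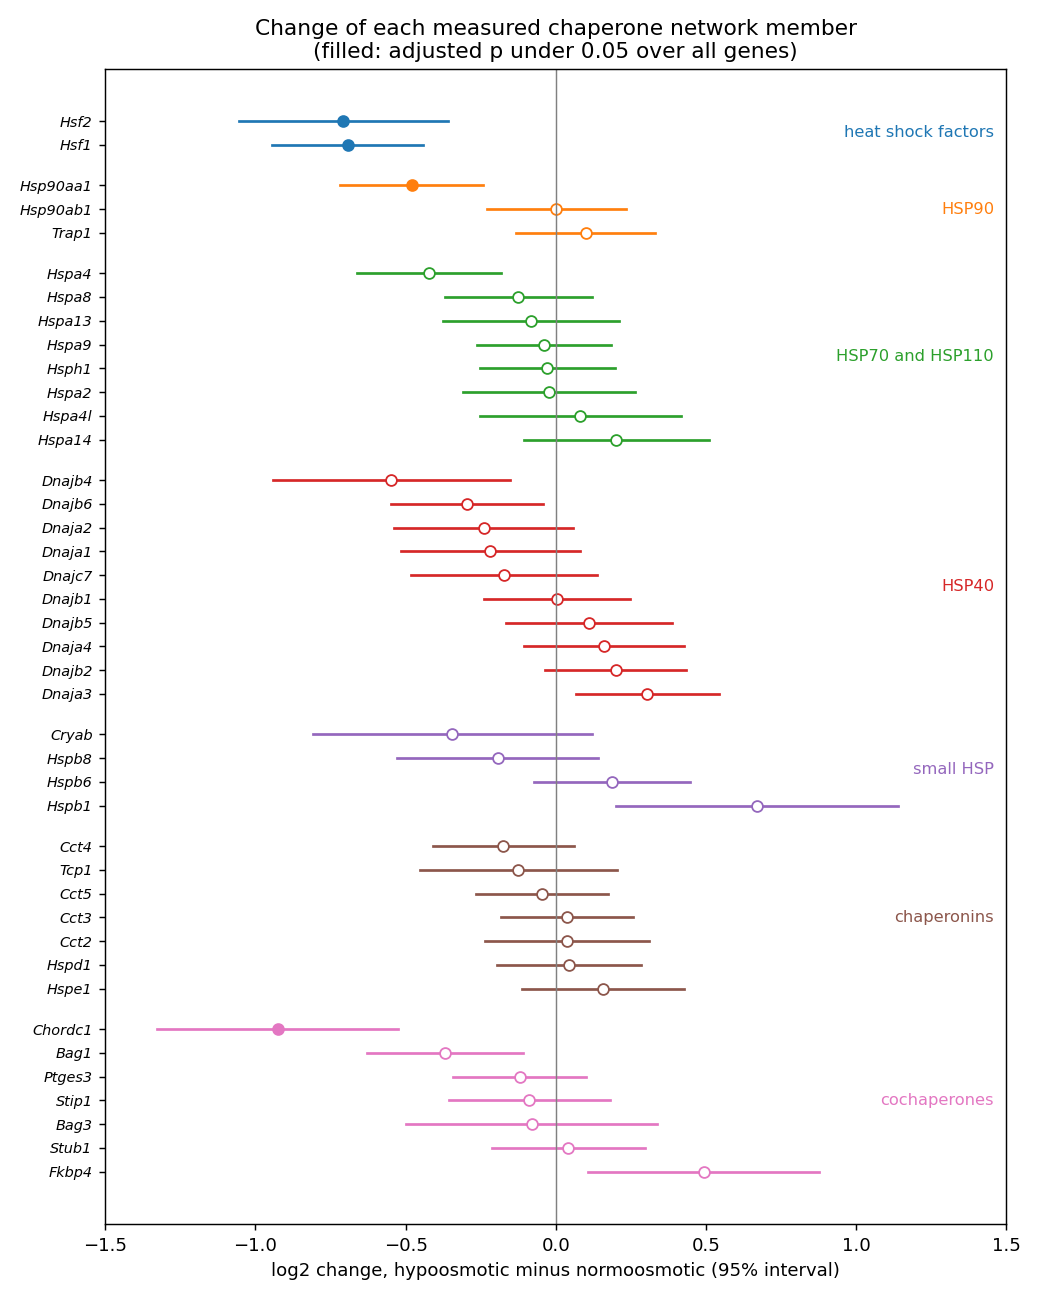
Log2 change of each of the 41 measured members, hypoosmotic minus normoosmotic, with its 95% interval from limma, grouped by class. Filled points are the 4 called members, Hsf1, Hsf2, Hsp90aa1 and Chordc1, all below 0.

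Array medians of the deposited log2 values lay between 4.05 and 4.16, and correlations between arrays over the named genes between 0.983 and 0.991. Hepatocyte markers were bright in every sample, as the tissue label implies, with a mean log2 level over 6 markers of 12.26 to 12.28 in normoosmotic and 12.18 to 12.35 in hypoosmotic samples. Of 39 measured markers of liver and blood cell types 0 were called, and 3 had an unadjusted p under 0.05 by limma (Spp1, Hbb and Alas2). Both measured red blood cell markers were lower in the hypoosmotic means, Hbb with a log2 change of -0.85 (adjusted p = 0.279) and groups that overlapped, and Alas2 with one of -0.23 (0.337) and groups that did not. Spp1, a cholangiocyte marker, had a change of 0.26 (0.329). The part of blood left in the vessels in the changes of the members was not tested. In whole liver, fewer cells of a type and less RNA per cell cannot be told apart.

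Hsf1, the master regulator of the heat shock response, was lower in every hypoosmotic sample than in any normoosmotic one. Its log2 values were 5.77, 5.66, 5.91 and 5.81 in normoosmotic replicates 1 to 4 and 4.97, 4.95, 5.18 and 5.28 in hypoosmotic replicates 1 to 4. The highest hypoosmotic value thus lay 0.38 log2 units under the lowest normoosmotic one. The log2 change was -0.69 ± 0.12 (SE), a ratio of 0.619 (95% interval of the log2 change -0.94 to -0.44, adjusted p = 0.0102). Hsf1 was called under all 16 alternative settings, with adjusted p-values of 0.00626 to 0.0493.

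Hsf2, a related factor that can form mixed trimers with HSF1 and acts also in development, fell by a similar amount. It read 8.01, 7.26, 7.43 and 7.47 in normoosmotic samples and 6.71, 6.66, 6.87 and 7.10 in hypoosmotic ones. Normoosmotic replicate 1 stood above the other 3 of its group, and the groups did not overlap. The log2 change was -0.71 ± 0.16 (SE), a ratio of 0.612 (adjusted p = 0.043). The call of Hsf2 was lost without normoosmotic replicates 1 (adjusted p = 0.0916), 3 (0.0837) and 4 (0.0668) and without hypoosmotic replicates 1 (0.101), 2 (0.143) and 3 (0.091). Without normoosmotic replicate 1 the change was -0.55. The changes of the 2 factors differed by 0.01 log2 units (two-sided exact permutation test of Hsf1 minus Hsf2 over the 8 samples, p = 1.0). The difference Hsf1 minus Hsf2 ranged from -2.24 to -1.52 in normoosmotic and from -1.82 to -1.69 in hypoosmotic samples. With 4 samples per group and this spread, the test cannot show that the 2 changes are alike.

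**Figure D2:**
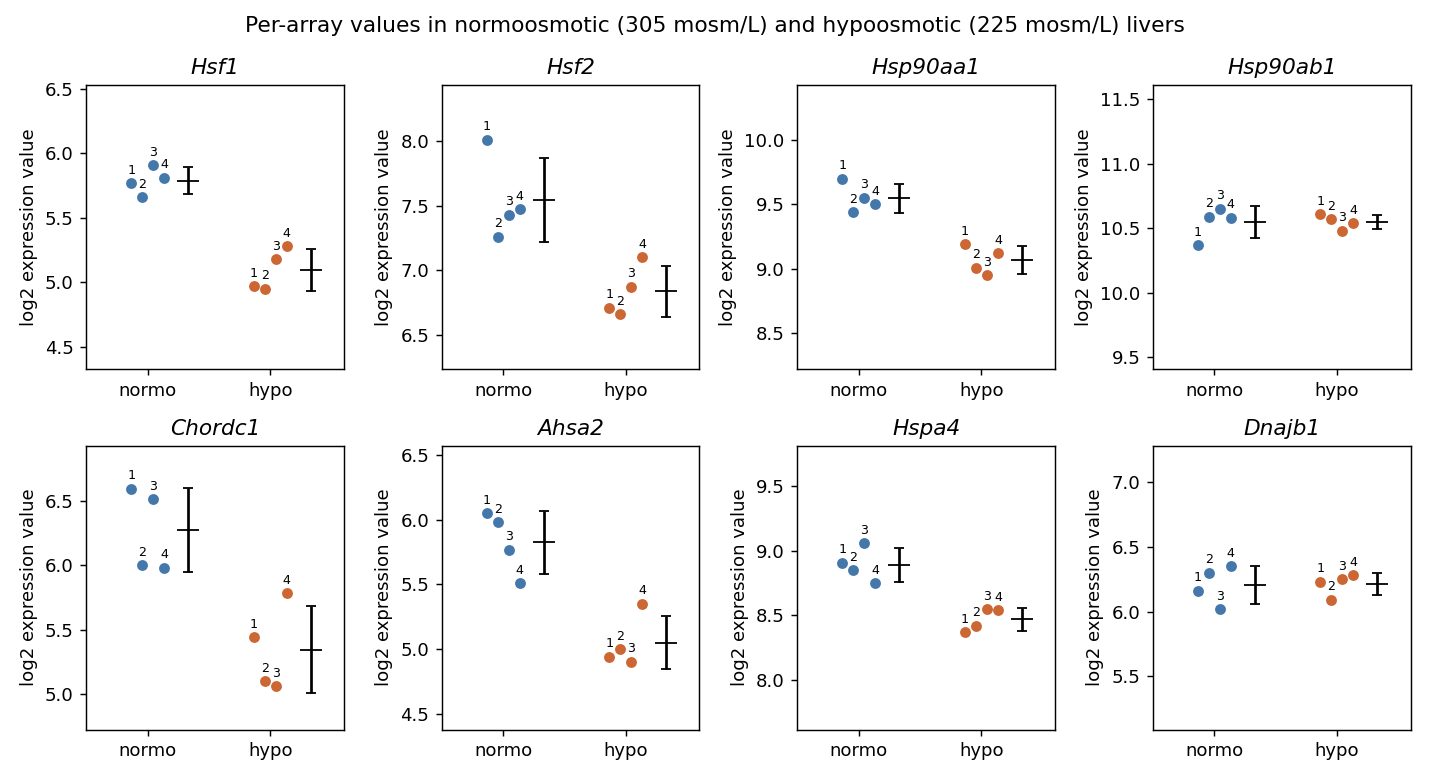
Log2 expression value of 8 genes on each array, numbered by replicate, with the mean and SD (n = 4) of each group as bars. Every panel spans the same number of log2 units. The groups are apart for Hsf1, Hsf2, Hsp90aa1, Chordc1, Ahsa2 and Hspa4 and overlap for Hsp90ab1 and Dnajb1.

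In the HSP90 class, Hsp90aa1, the stress-inducible cytosolic form, fell, and its constitutive paralogue Hsp90ab1 was not called. Hsp90aa1 read 9.70, 9.44, 9.55 and 9.50 in normoosmotic and 9.19, 9.01, 8.95 and 9.12 in hypoosmotic samples. The log2 change was -0.48 ± 0.11 (SE), a ratio of 0.717 (adjusted p = 0.0437). This call was lost when any single array was left out, with adjusted p-values of 0.0532 without hypoosmotic replicate 4 to 0.134 without hypoosmotic replicate 2 and log2 changes of -0.52 to -0.43. Without hypoosmotic replicates 1 and 3 it was 0.059 and 0.102, and without normoosmotic replicates 1 to 4 it was 0.119, 0.0573, 0.117 and 0.0693.

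Hsp90ab1 read 10.37, 10.59, 10.65 and 10.58 in normoosmotic and 10.61, 10.57, 10.48 and 10.54 in hypoosmotic samples, and the groups lay over each other. Its log2 change was 0.00, with a 95% interval of -0.23 to 0.23. The change of Hsp90aa1 minus that of Hsp90ab1 was -0.48 (two-sided exact permutation test over the 8 samples, p = 0.0286, the smallest that 4 against 4 samples allow). Hsp90aa1 minus Hsp90ab1 lay between -1.15 and -0.67 in normoosmotic and between -1.56 and -1.42 in hypoosmotic samples. Adjusted over the 3 pairs of related genes compared in this way, chosen after their values were seen, it was 0.0857, the lowest value that a lone pair at this smallest p can reach, so the adjusted test could not call the difference. Trap1, the mitochondrial HSP90, had a log2 change of 0.10 (95% interval -0.13 to 0.33).

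Chordc1, whose product binds HSP90 through its zinc-binding CHORD domains, had the largest fall among the members. Its values were 6.59, 6.00, 6.51 and 5.98 in normoosmotic replicates 1 to 4 and 5.44, 5.10, 5.06 and 5.78 in hypoosmotic replicates 1 to 4. Normoosmotic replicates 1 and 3 were high and 2 and 4 lower, and hypoosmotic replicate 4 came within 0.20 of the nearest normoosmotic value. The log2 change was -0.92 ± 0.19 (SE), a ratio of 0.527 (adjusted p = 0.0235). The call was lost without normoosmotic replicates 1 (adjusted p = 0.0744) and 3 (0.0794) and without hypoosmotic replicates 1 (0.0528), 2 (0.0908) and 3 (0.0731).

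**Figure D3:**
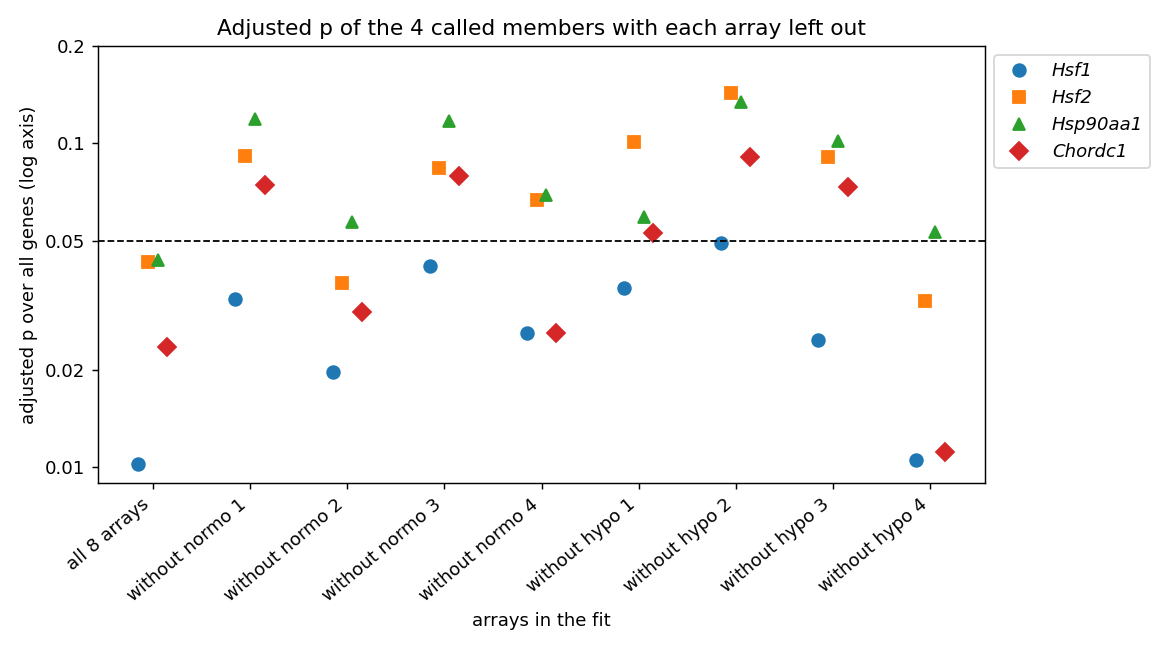
Adjusted p over all genes (limma, log axis) for the 4 called members with all 8 arrays and with each array left out in turn; the dashed line is 0.05. Hsf1 stays below the line throughout, at up to 0.0493, while Hsp90aa1 is above it in every fit of 7 arrays.

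Among the remaining HSP90 partners, Fkbp4, an immunophilin of steroid receptor complexes, had a log2 change of 0.49 ± 0.18 (SE; adjusted p = 0.199) and was not called. Its normoosmotic values were 6.82, 7.50, 7.0 and 7.75, and its hypoosmotic values 7.80, 7.86, 7.66 and 7.72. The hypoosmotic samples lay close together, and normoosmotic replicates 1 and 3 were the low ones. Stip1, which bridges HSP70 and HSP90, and Ptges3, the p23 cochaperone, had changes of -0.09 and -0.12, with 95% intervals of -0.36 to 0.18 and -0.34 to 0.10.

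Bag1, an exchange factor that releases HSP70 clients, read 6.66, 6.72, 6.67 and 6.74 in normoosmotic samples and 6.42, 6.08, 6.26 and 6.56 in hypoosmotic ones. The groups did not overlap, and the log2 change was -0.37 ± 0.12 (SE; adjusted p = 0.149). Bag3, which links HSP70 to HSPB8 and to selective autophagy, had a change of -0.08 with an interval of -0.50 to 0.34. It was highest in replicate 4 of either group, at 6.33 in both. Stub1, the ubiquitin ligase CHIP, had a change of 0.04. Among the 7 cochaperones measured 1 was called lower, 0 higher, and the median change was -0.09. Of all genes 1.42% were called lower and 0.558% higher, and their median change was 0.04.

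No HSP70 or HSP110 gene was called among the 8 measured (limma). Of these 1, Hspa4, had an unadjusted p under 0.05. Hspa4, an HSP110-type exchange factor, came nearest, at 8.91, 8.85, 9.06 and 8.75 in normoosmotic and 8.37, 8.42, 8.55 and 8.54 in hypoosmotic samples. The groups did not overlap, with a log2 change of -0.42 ± 0.11 (SE; adjusted p = 0.0715). It was called with the trended and robust prior (0.0498) and with array weights (0.0466). Its relatives Hspa4l and Hsph1 had changes of 0.08 and -0.03. The change of Hspa4 minus that of Hspa4l was -0.51 (exact permutation test, two-sided, p = 0.0571, adjusted over the 3 pairs 0.0857).

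Hspa8, the constitutive cytosolic HSP70, read 11.82, 11.56, 11.88 and 11.90 in normoosmotic and 11.58, 11.76, 11.64 and 11.68 in hypoosmotic samples. These ranges overlapped, and the log2 change was -0.12 (95% interval -0.37 to 0.12), or -0.05 after quantile normalization and -0.20 without normoosmotic replicate 2. Hspa8 is uncertain as a single gene, because 8 probe sets carry its symbol, and probe sequences were not used here to tell them from near-identical copies. Their log2 changes lay between -0.17 and -0.12. The mitochondrial Hspa9 had a change of -0.04 (-0.26 to 0.18), the microsomal Hspa13 one of -0.08, the ribosome-associated Hspa14 one of 0.20, and Hspa2, best known from testis, one of -0.02. Hspa2 was the 1 member among the dimmest 25% of genes, at a mean of 2.76. The stress-inducible Hspa1a and Hspa1b, which are no members, share a probe set with Hspa1l; it was left out because only probe sets with a single symbol were used, so these genes are not analysed here.

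Of the 10 HSP40 genes 0 were called by limma, and 3 had an unadjusted p under 0.05. These were Dnajb4, Dnaja3 and Dnajb6. Dnajb4, a partner of cytosolic HSP70, read 8.11, 7.43, 8.07 and 8.21 in normoosmotic and 7.49, 7.75, 7.32 and 7.07 in hypoosmotic samples. Normoosmotic replicate 2 fell among the hypoosmotic values, and the log2 change was -0.55 ± 0.18 (SE; adjusted p = 0.157). Without normoosmotic replicate 2 the change was -0.72 and Dnajb4 was called (adjusted p = 0.0431).

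Dnajb6, a suppressor of aggregation, had values of 7.22, 7.14, 7.04 and 7.07 in normoosmotic and 6.96, 6.66, 6.68 and 6.99 in hypoosmotic samples. Every hypoosmotic value was the lower, with a log2 change of -0.29 ± 0.12 (SE; adjusted p = 0.252). Dnaja3, the mitochondrial HSP40, was the 1 member whose hypoosmotic values all lay above the normoosmotic ones. It read 6.97, 7.13, 7.30 and 7.05 in normoosmotic and 7.45, 7.49, 7.33 and 7.40 in hypoosmotic samples, a log2 change of 0.31 ± 0.11 (SE; adjusted p = 0.2).

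The cytosolic type A partners Dnaja1 and Dnaja2 had log2 changes of -0.22 and -0.24 (adjusted p = 0.529 and 0.475). Dnaja1 read 10.23, 9.95, 10.20 and 9.96 in normoosmotic and 9.62, 9.85, 9.79 and 10.21 in hypoosmotic samples, and Dnaja2 7.78, 7.68, 8.23 and 7.62 against 7.48, 7.67, 7.57 and 7.63. The groups of both genes overlapped. Without hypoosmotic replicate 1 the change of Dnaja1 was -0.13, and without normoosmotic replicate 3 that of Dnaja2 was -0.11. Dnajb2, a form enriched in neurons, read 6.84, 7.02, 7.02 and 6.98 in normoosmotic and 7.29, 7.16, 7.20 and 7.01 in hypoosmotic samples, with a log2 change of 0.20 (adjusted p = 0.442). Dnajb1, the heat-inducible partner of HSP70, had a log2 change of 0.01 with an interval of -0.24 to 0.25. Dnajc7, Dnajb5 and Dnaja4 had changes of -0.17, 0.11 and 0.16.

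Of the 7 classes, the small HSPs had the highest median SD within groups, 0.33 log2 units, against 0.10 to 0.20 in the others. Hspb1 (HSP27), which binds actin and unfolded chains, read 3.14, 3.18, 2.99 and 4.05 in normoosmotic and 3.56, 4.05, 4.15 and 4.28 in hypoosmotic samples. Normoosmotic replicate 4 lay among the hypoosmotic values, and the others lay below them. The log2 change was 0.67 ± 0.22 (SE; adjusted p = 0.145). Without normoosmotic replicate 4 it was 0.91, and Hspb1 was called (adjusted p = 0.0213). The values of normoosmotic replicates 1 to 3 lay below 3.21, the 25% quantile of gene means, and can be background.

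Cryab (alpha B-crystallin) read 4.63, 4.13, 4.52 and 5.24 in normoosmotic and 4.16, 4.78, 4.11 and 4.09 in hypoosmotic samples, a log2 change of -0.34 ± 0.22 (SE; adjusted p = 0.52). Normoosmotic replicate 4 was again the highest of its group, and without it the change was -0.14. Without normoosmotic replicate 2, or without hypoosmotic replicate 2, the change of Cryab was -0.51. Hspb8, the BAG3 partner, read 9.14, 9.52, 9.72 and 9.03 in normoosmotic and 9.18, 9.10, 9.0 and 9.36 in hypoosmotic samples, with a change of -0.19 (adjusted p = 0.639), which was -0.07 without normoosmotic replicate 3 and -0.30 without normoosmotic replicate 4. Hspb6 (HSP20), known from smooth muscle, had a change of 0.19 (adjusted p = 0.532). The SD within groups was 0.41 for Hspb1, 0.40 for Cryab and 0.35 for Bag3, against a median of 0.16 over the members and of 0.19 over all genes.

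Of 9 markers of stellate cells, smooth muscle and fibroblasts, 6 were also highest in replicate 4 among the normoosmotic samples, and Acta2, Myh11 and Rgs5 were not. The mean log2 level of the 9 was 6.22, 5.93, 6.32 and 6.71 in normoosmotic and 6.24, 6.38, 6.50 and 6.18 in hypoosmotic samples. The groups overlapped, 0 of the 9 markers were called (limma), 0 had an unadjusted p under 0.05, and none was among the dimmest 25% of genes. Replicate 4 also led the normoosmotic group in the mean level of 4 endothelial markers (7.54, against 7.18 to 7.27 in the others), of 7 Kupffer cell and macrophage markers (6.81, against 6.34 to 6.46) and of 2 red blood cell markers (5.82, against 4.74 to 5.51). Other lists differed. The mean of 5 cholangiocyte markers was highest in normoosmotic replicate 1 (4.62, against 4.14 in replicate 4). That of 6 lymphocyte and neutrophil markers was lowest in replicate 4 (2.82, against 2.89 to 3.06). Among hypoosmotic samples, replicate 4 was the highest for Hspb1 (4.28) and Bag3 (6.33) and the lowest for Cryab (4.09). It had the lowest mean of the stellate, smooth muscle and fibroblast markers (6.18) and of the Kupffer cell and macrophage markers (6.37). Its endothelial mean was 7.32 (group range 7.29 to 7.54) and its red blood cell mean 4.64 (4.58 to 5.28). Its cholangiocyte mean was the highest of the group (4.44). The part of other cell types in the values of Hspb1, Cryab and Bag3 was not tested.

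The chaperonins were close between the buffers. Of 7 genes 0 were called, 0 had an unadjusted p under 0.05 (limma), and the changes ran from -0.17 for Cct4 to 0.16 for Hspe1. For all 7 the 95% interval lay within a 1.5-fold change in either direction (0.585 log2 units), as it did for 31 of the 41 members (75.6%) and for 81.4% of all genes. Hspd1 (HSP60) read 9.28, 9.27, 9.46 and 9.32 in normoosmotic and 9.45, 9.48, 9.18 and 9.40 in hypoosmotic samples. The ranges overlapped, with a log2 change of 0.04 (-0.20 to 0.29). Another, dimmer probe set of Hspd1 had a change of -0.24 (adjusted p = 0.391 over all 15310 probe sets with 1 symbol).

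Hspe1 (HSP10), the lid of the mitochondrial ring, had a change of 0.16 (-0.11 to 0.43). The subunits of the cytosolic ring CCT, which folds actin and tubulin, had changes of 0.04 for Cct2, 0.04 for Cct3, -0.17 for Cct4, -0.04 for Cct5 and -0.12 for Tcp1. Cct4 read 7.99, 7.93, 8.14 and 7.84 in normoosmotic and 7.78, 7.90, 7.79 and 7.73 in hypoosmotic samples, which overlapped. Grouped by compartment, the 5 mitochondrial members Trap1, Hspa9, Hspd1, Hspe1 and Dnaja3 had a median log2 change of 0.10, with 0 called by limma, 1 of them (Dnaja3) at an unadjusted p under 0.05, and 4 above 0. Among all genes, 8507 of 14506 had a change above 0, 14.6% had an unadjusted p under 0.05 (limma), and the median was 0.04. This grouping was chosen after values were seen.

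**Figure D4:**
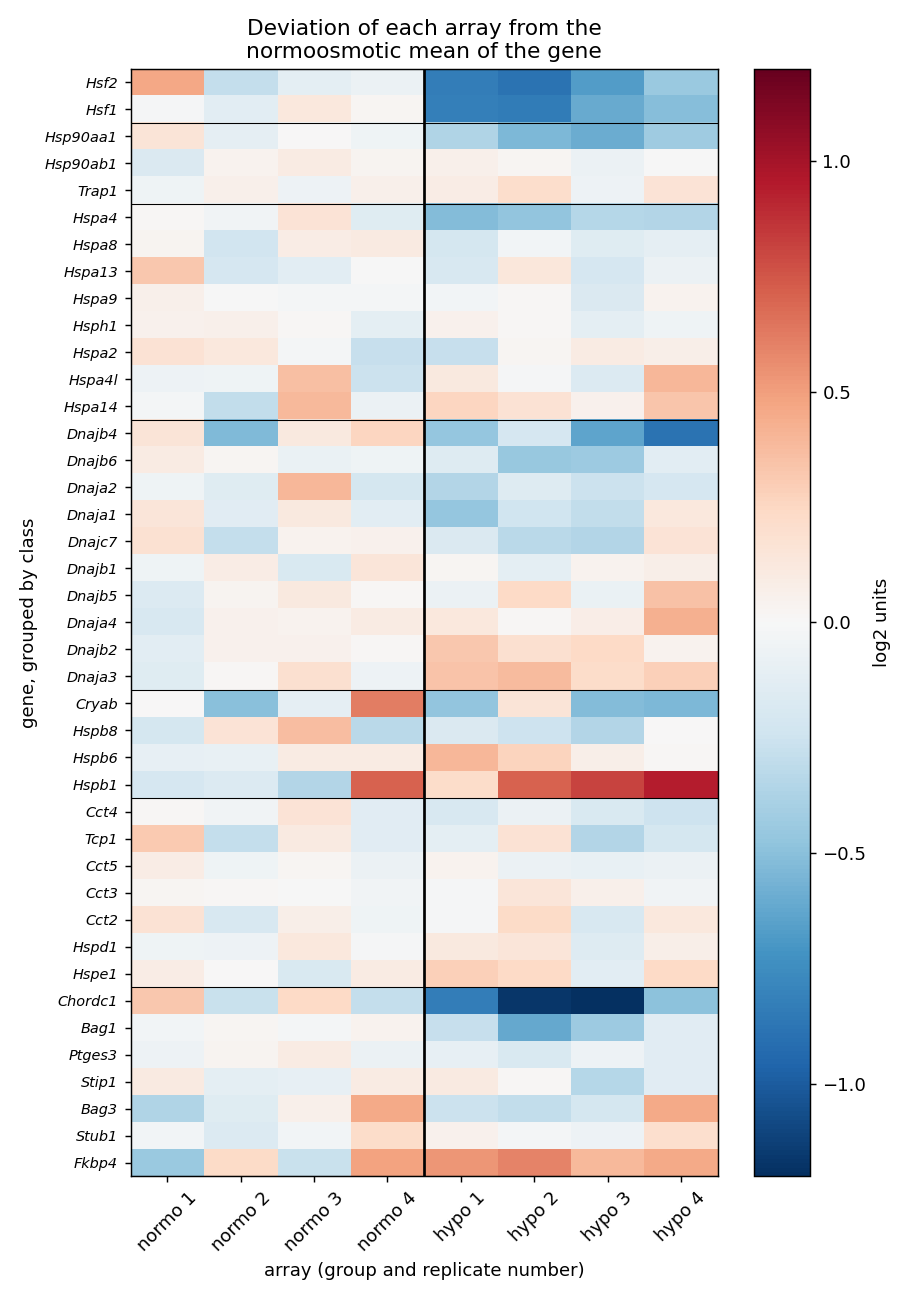
Deviation of each array from the normoosmotic mean of the gene, in log2 units, for the 41 measured members grouped by class (rows) on the 8 arrays (columns, labelled by group and replicate). Hsf1, Hsf2, Hsp90aa1, Hspa4 and Chordc1 are blue on all 4 hypoosmotic arrays, and Hspb1 is red on those and on normoosmotic replicate 4. Hspa8, Dnaja2, Dnajb4, Dnajb6, Cct4, Bag1 and Ptges3 also lie below 0 on all 4 hypoosmotic arrays, some by little. Hspa14, Dnaja3, Dnaja4, Dnajb2, Hspb6 and Fkbp4 lie above 0 on all 4.

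Between single hypoosmotic arrays, replicate 3 had 31 of the 41 members below the normoosmotic mean of the gene, replicate 1 had 24, and replicates 2 and 4 had 20 each. Clock genes also differed between samples. Bmal1, a clock activator, read 4.85, 7.18, 4.75 and 7.32 in normoosmotic replicates 1 to 4 and 7.15, 6.90, 6.42 and 6.92 in the hypoosmotic ones. Normoosmotic replicates 1 and 3, the low ones for Bmal1, were the high ones for Chordc1 and Dnaja1 and the low ones for Fkbp4. They were also the higher ones, some by little, for Hsp90aa1, Hspa4, Hspa14, Dnaja2, Cct2, Cct4, Cct5 and Tcp1. For Trap1, Dnaja4, Dnajb1, Hspb1 and Bag1 they were the lower ones. The other members, Hsf1 and Hsf2 among them, had neither order. Among 4 values such orders are common by chance. Their share over all genes was not counted, so these lists do not set the members apart. With a clock score as covariate (Bmal1 and Npas2 against Dbp and Per3) the log2 change was -0.64 for Hsf1 (adjusted p = 0.043), -0.60 for Hsf2 (0.125), -0.45 for Hsp90aa1 (0.129) and -0.78 for Chordc1 (0.064), so Hsf1 alone of these 4 passed. With the same covariate the change of Fkbp4 was 0.29 (0.383), that of Hspa4 -0.36 (0.202), that of Dnaja1 -0.13 (0.812) and that of Dnaja2 -0.14 (0.789).

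Members were also divided by whether GAANNTTC or TTCNNGAA was found in the promoter sequence, a match of letters only. The called Hsf1 and Hsp90aa1 had no promoter sequence and count in neither part. Of the 19 members with a match 1 was called lower, Chordc1, and the median log2 change was -0.04. Of the 17 without a match 1 was called lower, Hsf2, and the median was 0.04. Of all genes 1.42% were called lower, and their median was 0.04. The 7 members with a 3-unit run had changes of -0.92 for Chordc1, -0.22 for Dnaja1, -0.17 for Cct4, -0.12 for Hspa8, -0.03 for Hsph1, 0.04 for Hspd1 and 0.16 for Hspe1. Hspd1 and Hspe1, which share 1 run, count in both places.

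Of 56 further genes of the chaperone network, listed by name, 46 were measured, 1 was called lower and 0 higher (2.17%, against 1.98% of all genes called in either direction). The called gene was Ahsa2, a relative of the HSP90 ATPase activator Ahsa1. It read 6.05, 5.98, 5.77 and 5.51 in normoosmotic and 4.94, 5.0, 4.90 and 5.35 in hypoosmotic samples. The groups did not overlap, and the log2 change was -0.78 ± 0.15 (SE), a ratio of 0.582 (adjusted p = 0.0179). The call was lost without normoosmotic replicate 1 (adjusted p = 0.0563), without hypoosmotic replicates 1 (0.0528), 2 (0.0688) and 3 (0.0539). It was lost with the clock covariate too (0.0583).

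The 4 other genes of this list with the smallest p were not called. Dnajc21, an HSP40 of ribosome maturation, read 6.99, 6.82, 6.79 and 6.89 in normoosmotic and 6.02, 6.31, 6.29 and 6.74 in hypoosmotic samples, with a log2 change of -0.53 (adjusted p = 0.0772). These groups did not overlap, and Dnajc21 was called without hypoosmotic replicate 4 (adjusted p = 0.0179) and with array weights (0.0493). Bag5, an exchange factor, had a change of -0.35 (adjusted p = 0.158), with normoosmotic values from 5.80 to 5.95 and hypoosmotic ones from 5.40 to 5.82. Hspa12b, a distant HSP70 of endothelial cells, had a change of 0.43 (0.162) and read 3.10 to 3.50 in normoosmotic and 3.33 to 3.93 in hypoosmotic samples. Fkbp5, a glucocorticoid-induced HSP90 immunophilin, had a change of 0.53 (0.186). Its values were 5.49, 5.29, 5.59 and 5.08 against 5.70, 5.70, 5.66 and 6.52, so that the groups did not overlap and hypoosmotic replicate 4 stood apart. Without it the change of Fkbp5 was 0.32.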

How the data were processed

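RNA was extracted with Trizol, labelled with biotin and hybridised to Affymetrix arrays, per the labels' protocols. The authors deposited log2 expression values for 27596 probe sets on 8 arrays. Transcriptome Analysis Console 4.0 is named per the submitters' processing notes, but no source used here gives the background step, the summarisation or the normalization. The log2 scale was read from the range of the values, 0.88 to 13.26. Probe sets with 1 symbol in the platform annotation (15310) were kept, 323 with several and 11963 unnamed ones were left out, and symbols were updated by gene ID through the RefSeq table (GRCr8; 15279 matched). The brightest probe set of a gene was taken, which gave 14506 genes, and no gene was filtered for low signal. Groups of 4 samples were compared with limma 3.58.1 in R 4.3.3 (group as the only term, two-sided), and p-values were adjusted over all genes by Benjamini-Hochberg. An array has no read depth, so the 4 arrays per group limit the precision.

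Values in every sample are given for called members, for the 12 members with the smallest p among the rest and for the brightest member of each class. Of the further network genes, the called ones and the 4 with the smallest p were named. The members, lists, tests and classes were chosen with earlier results of these data known. The grouping by compartment, the promoter comparison and the 3 gene pairs were chosen after values were seen. Alternatives were quantile normalization, centring on array medians, leaving out the dimmest 25% of genes, another prior, array weights, a replicate block, means over probe sets, a clock covariate and leaving out each array. The labels do not say whether the replicate numbers in the titles pair the samples. The correlation of same-numbered samples' deviations from their group means was 0.046, 0.028, 0.083 and 0.173. Differently numbered samples gave -0.302 to 0.206, and 4 samples per group cannot decide whether the numbers pair them.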

Additional observations from a re-analysis of the deposited data

Results flagged for a closer look

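Among the 82 groups of 4 values (41 members in 2 buffers), 4 held a sample whose gap to the nearest of the others took up more of the group's range than Dixon's 95% critical value. That is 4.88% of the groups, and chance flags about 1 in 20. All 4 were in hypoosmotic samples, each in a different replicate. Cryab was at 4.78 in hypoosmotic replicate 2, against 4.09 to 4.16 in the others. Hspe1 was at 8.79 in hypoosmotic replicate 3, against 9.15 to 9.20. Cct5 was at 8.62 in hypoosmotic replicate 1, against 8.49 to 8.51. Bag3 was at 6.33 in hypoosmotic replicate 4, against 5.58 to 5.67. None of these 4 genes was called.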

How the results depend on the processing

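Over all genes 287 were called, and 92 with the clock score as covariate. When single arrays were left out the count ran from 81 to 365, with 117 and 108 without normoosmotic replicates 1 and 3 and 155, 81 and 156 without hypoosmotic replicates 1, 2 and 3. Of the members 4 were called lower, against 2 with the replicate block (Chordc1 and Hsf1), 1 with the clock covariate (Hsf1) and 1 to 4 with single arrays left out. Called higher were 0, against 0 to 1 (Hspb1) with single arrays left out. With the replicate block Hsf2 and Hsp90aa1 had adjusted p-values of 0.0529 and 0.059. Hsp90ab1 changed sign around 0, to -0.03 with array medians subtracted, -0.02 with the clock covariate and between -0.06 and 0.04 with single arrays left out. Hspd1 was at -0.10 with the mean over its probe sets. For the 25 named genes under 16 alternatives each, 359 of 400 values kept direction and side of the threshold, 29 lost the call, 6 gained it and 6 changed sign. Most of the 400 belong to genes that were not called and had no call to lose. Of the 16 alternatives Hsf1 kept its call in 16, Ahsa2 in 11, Chordc1 in 10, Hsf2 in 8 and Hsp90aa1 in 6. The cause of these differences between settings was not tested, and the fits with an array left out also had fewer samples. No detection call was used, so low values such as those of Hspa2 and the lower ones of Hspb1 can be background. Changes of dim genes may be compressed, which was not tested.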
